A study of Mus musculus with 20 samples.

Results

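Eed loss did not act alike on every gene in the stomach and the intestine of mouse embryos at E13.5 (embryonic day). Of 16218 genes tested in 8 RNA-seq libraries, 75 (0.462%) were called as responding differently in the 2 organs. Calls were made by edgeR at an adjusted p under 0.2 and a log2 difference over 1 in size. At such a threshold a share of up to about 0.2 of the calls may be false. The difference was taken as the log2 change on Eed loss in the stomach minus that in the intestine. It was positive for 44 genes (0.271%), led by posterior Hox genes, most of them at or near 0 in the control stomach, and negative for 31 genes (0.191%), among them the transcription factor genes *Barx1* and *Mecom*, the growth cone gene *Gap43* and the receptor genes *Grm3* and *Chrm3*.

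The cells were GFP+ mesenchymal cells sorted from dissected stomach (St) or intestine (Int). Controls had the genotype Bapx1-cre;Rosa26mTmG and the Eed KO embryos Eedfl/fl;Bapx1-cre;Rosa26mTmG, so the controls carried the Cre and the membrane reporter as well and differed by the floxed *Eed* alleles. The labels give the strain as C57BL/6, whereas the study describes the floxed *Eed* and reporter lines as being on mixed backgrounds. Each of the 4 groups had 2 libraries, 8 of the 20 samples in the series. The Cre is driven by *Bapx1* (also named *Nkx3-2*), a gene of the mesenchyme around the gut and of the sclerotome, so other cells kept *Eed*. The sources do not say whether a stomach and an intestine library came from the same embryos or how many embryos were pooled, and p-values here measure the spread between these libraries.

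EED is the subunit of Polycomb repressive complex 2 (PRC2) that binds trimethylated lysine 27 of histone H3 (H3K27me3) and stimulates the enzyme EZH2 or EZH1 to spread that mark, which is tied to silent developmental genes. Hox genes are classical PRC2 targets. They lie in 4 clusters, A to D, in which genes near one end (low paralog numbers) are active in anterior tissue and genes near the other end (high numbers) in posterior tissue, and the stomach lies anterior to the intestine. *Barx1* marks the stomach mesenchyme and *Nkx2-3* the mesenchyme of the midgut and hindgut.

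Promoter sequence is shown for 2 genes of each direction, because CpG-rich promoters are frequent PRC2 targets. The 250 bases before the gene start are given 5′ to 3′ from the mouse GRCm38.p6 genome, with the letters CG in capitals. *Hoxa11* and *Nkx2-3* are 2 positive genes whose promoter peaks are described with the chromatin data. *Barx1* and *Gap43* are negative genes with many and few CpG.
Hoxa11 (chr6:52245811-52246060, minus strand, 13 CG): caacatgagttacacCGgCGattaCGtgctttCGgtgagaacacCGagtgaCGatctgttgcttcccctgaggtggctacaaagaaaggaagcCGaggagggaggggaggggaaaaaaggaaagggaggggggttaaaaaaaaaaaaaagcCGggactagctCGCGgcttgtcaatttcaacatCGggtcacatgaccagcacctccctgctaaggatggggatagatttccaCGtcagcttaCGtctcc
Nkx2-3 (chr19:43612075-43612324, plus strand, 14 CG): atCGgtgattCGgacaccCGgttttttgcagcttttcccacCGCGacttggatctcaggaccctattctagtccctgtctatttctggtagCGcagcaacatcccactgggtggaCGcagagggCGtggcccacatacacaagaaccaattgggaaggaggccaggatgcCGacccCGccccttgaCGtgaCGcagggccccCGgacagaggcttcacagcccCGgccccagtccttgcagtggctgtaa
Barx1 (chr13:48662748-48662997, plus strand, 31 CG): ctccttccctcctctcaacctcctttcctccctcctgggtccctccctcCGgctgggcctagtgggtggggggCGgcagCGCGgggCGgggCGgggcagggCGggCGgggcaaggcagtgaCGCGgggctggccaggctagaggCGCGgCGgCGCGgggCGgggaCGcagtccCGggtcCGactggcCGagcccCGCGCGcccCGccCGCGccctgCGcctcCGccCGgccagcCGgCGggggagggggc
Gap43 (chr16:42340652-42340901, minus strand, 3 CG): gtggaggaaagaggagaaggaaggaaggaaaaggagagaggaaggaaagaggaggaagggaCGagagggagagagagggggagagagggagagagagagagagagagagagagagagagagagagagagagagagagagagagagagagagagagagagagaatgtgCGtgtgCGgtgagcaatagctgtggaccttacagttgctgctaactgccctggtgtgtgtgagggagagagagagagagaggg

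The libraries held 30236159 to 39606157 counts on genes. At these depths 3 counts correspond to 0.0757 to 0.0992 counts scaled to 1e+06 per library (CPM), an upper limit for counting error where a gene had no count. *Eed*, the targeted gene, fell from 38.1 and 40.1 CPM to 10.7 and 8.59 CPM in the intestine and from 40.1 and 41.5 CPM to 11.5 and 7.40 CPM in the stomach. Its fall did not differ detectably between the organs (log2 difference −0.10 ± 0.29 SE, edgeR adjusted p = 1). Mesenchymal marker genes summed to between 14141 and 25738 CPM and leukocyte markers to between 6.45 and 13.8 CPM. Replicate 1 of the Eed KO had 0.0792 CPM of *Xist* in the intestine and 0.0537 in the stomach with 9469 and 10247 counts on Y-linked genes, whereas replicate 2 had 56.1 and 52.2 CPM of *Xist* with 0 and 2 such counts. The 4 control libraries held both *Xist* and Y-linked counts. Same-numbered Eed KO libraries of the 2 organs therefore matched in these genes.

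By the tests within each organ (edgeR, adjusted p under 0.05 and a log2 change over 1 in size), Eed loss raised 785 genes (4.84%) and lowered 131 (0.808%) in the stomach, and raised 386 (2.38%) and lowered 37 (0.228%) in the intestine. These tests share all their libraries with the organ-dependence test, so the calls below describe which organ moved and lend no further support. Of the 44 positive genes, 28 were called up in the stomach and not called in the intestine, 9 were called up in both organs, and *Nptx1*, which encodes a secreted neuronal pentraxin, was called up in the stomach and down in the intestine. *Sgpp2* was called only as down in the intestine, and 5 positive genes (*Adora1*, *Ccbe1*, *Chst2*, *Mgp* and *Peg10*) passed neither test. Of the 31 negative genes, 15 were called down in the stomach and not called in the intestine, 7 were called up in the intestine and not called in the stomach, and 3 were called down in the stomach and up in the intestine. *Hoxb9* was called up in both organs, and 5 negative genes (*Bmpr1b*, *Hoxa7*, *Lor*, *Nr2f1* and *Tmem215*) passed neither test. The positive genes had a median change in the stomach of 3.66 and an intestine median of 0.30, and the negative genes −1.07 and 0.87, against 0.00 and 0.01 for all genes tested (log2). In bulk libraries fewer cells of a type and less RNA per cell cannot be told apart.

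**Figure D1:**
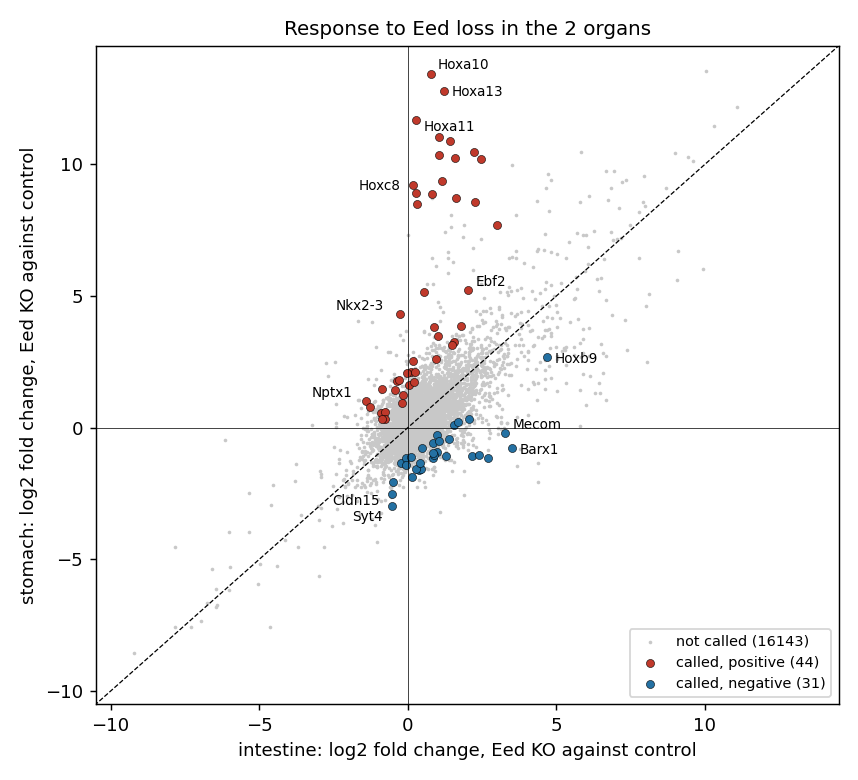
Log2 change on Eed loss in the intestine (x axis) and in the stomach (y axis) for the genes tested, with the 44 positive and 31 negative genes marked. The distance of a point from the diagonal is the organ difference; positive genes lie above it and negative genes lie below it.

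Posterior Hox genes made up the largest group. Of 39 Hox genes tested, 14 were called positive and 2 negative, against 0.271% and 0.191% of all genes. All but 1 of the positive ones had a paralog number of 8 to 13, of which 19 were tested and 13 were positive. For short, paralogs 8 to 13 are called posterior here and paralogs 1 to 7 anterior, a split by number alone. Of the 20 genes with paralog numbers 1 to 7, *Hoxc6* was positive and *Hoxa7* negative. In the stomach 18 of the 19 posterior genes were called up and none down, whereas among the 20 anterior genes 1 was up and 6 were down. In the intestine 5 of the 19 were called up, and 0 up and 3 down of the 20. The median organ difference was 8.19 for the posterior and −0.31 for the anterior genes (log2), beside −0.01 for all genes, but the fitted difference of a gene at 0 counts depends on the prior count. With such genes at their lower bound, the median over the 16 posterior genes that allow one was 4.91.

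*Hoxa10* (chr6:52231197-52240854, minus strand) had 27.6 and 24.2 CPM in the control intestine, 57.3 and 31.5 in the Eed KO intestine, 0 and 0 in the control stomach and 40.6 and 36.9 in the Eed KO stomach. The Eed KO stomach thus lay above both control intestine libraries and the control stomach at 0. Its level rose at least 953-fold in the stomach, taking 3 counts over the control group as the floor, and stood 1.72-fold higher in the Eed KO than in the control intestine, with overlap in neither organ (organ difference, edgeR adjusted p = 0.00989).

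*Hoxa11* (chr6:52242106-52245810, minus strand), whose promoter is printed above, had 13.3 and 12.9 CPM in the control intestine, 18.4 and 13.6 in the Eed KO intestine, 0 and 0 in the control stomach and 9.66 and 13.1 in the Eed KO stomach. The stomach groups were far apart while the intestine groups lay close. The stomach rise was at least 280-fold and the intestine ratio 1.23 (edgeR adjusted p = 0.00814). *Hoxa13*, the most posterior gene of its cluster, went from 0 and 0 to 20.1 and 29.6 CPM in the stomach, at least 609-fold, and stood at 5.51 and 8.21 CPM in the control and 16.3 and 15.6 CPM in the Eed KO intestine (edgeR adjusted p = 0.00989).

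*Hoxc8* (chr15:102990607-102994111, plus strand) had the smallest p of all genes. It had 62.9 and 59.1 CPM in the control intestine, 75.3 and 72.4 in the Eed KO intestine, 0 and 0.051 in the control stomach and 14.7 and 14.4 in the Eed KO stomach. It rose clearly in the stomach and remained below the intestine there. The stomach ratio was 537, with a counting interval of 148 to 4443 since the control stomach held 2 counts, and the intestine ratio was 1.21 (edgeR adjusted p = 0.000524). *Hoxc9* went from 0 and 0 to 6.95 and 6.34 CPM in the stomach, at least 163-fold. It also rose 2.67-fold in the intestine, from 6.69 and 5.82 to 18.3 and 15.3 CPM (organ difference, edgeR adjusted p = 0.00814).

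In the D cluster *Hoxd13* went from 0.029 and 0.051 to 25.8 and 32.5 CPM in the stomach and stood at 5.90 and 13.3 CPM in the control and 20.3 and 22.0 CPM in the Eed KO intestine. The stomach ratio was 715 (counting interval 244 to 3471, 3 counts in the control stomach) and the intestine ratio 2.28 (edgeR adjusted p = 0.014). *Hoxd12* reached only 1.37 and 1.92 CPM in the Eed KO stomach from 0 and 0, at least 40.3-fold, and *Hoxd11* 1.23 and 1.29 CPM, at least 31-fold, while the control intestine held 3.29 and 3.97 CPM of *Hoxd12* and 10.7 and 7.34 CPM of *Hoxd11*. The rises within the D cluster therefore ended at unequal levels. *Hoxd9*, *Hoxc10* and *Hoxc11* were likewise at 0 in the control stomach and rose at least 183-fold, 105-fold and 121-fold.

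Other positive Hox genes were already detected in the control stomach. *Hoxd8* rose 6.1-fold there, from 2.43 and 2.58 to 16.4 and 14.1 CPM, and was 1.94-fold higher in the Eed KO intestine, a change under the log2 limit of 1 (organ difference 1.65 ± 0.18 SE, edgeR adjusted p = 0.0339). *Hoxa9* rose 11.2-fold, from 1.07 and 1.25 to 14.4 and 11.8 CPM (2.47 ± 0.35 SE, edgeR adjusted p = 0.0686). *Hoxc6*, the only positive gene below paralog 8, rose 3.43-fold from 2.55 and 3.14 to 9.93 and 9.71 CPM, whereas the intestine had 33.9 and 29.4 CPM in the control and 23.9 and 25.6 CPM in the Eed KO (2.14 ± 0.20 SE, edgeR adjusted p = 0.0164). Across the 14 positive Hox genes the mean CPM in the Eed KO stomach was 14.0% (*Hoxd11*) to 568% (*Hoxc11*) of that in the control intestine, with a median of 104%. In CPM, without logarithms, *Hoxc9*, *Hoxc10*, *Hoxd9*, *Hoxd11* and *Hoxd12* changed by more in the intestine than in the stomach, with differences of −3.88 CPM for *Hoxc9* and −5.31 CPM for *Hoxd9*.

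**Figure D2:**
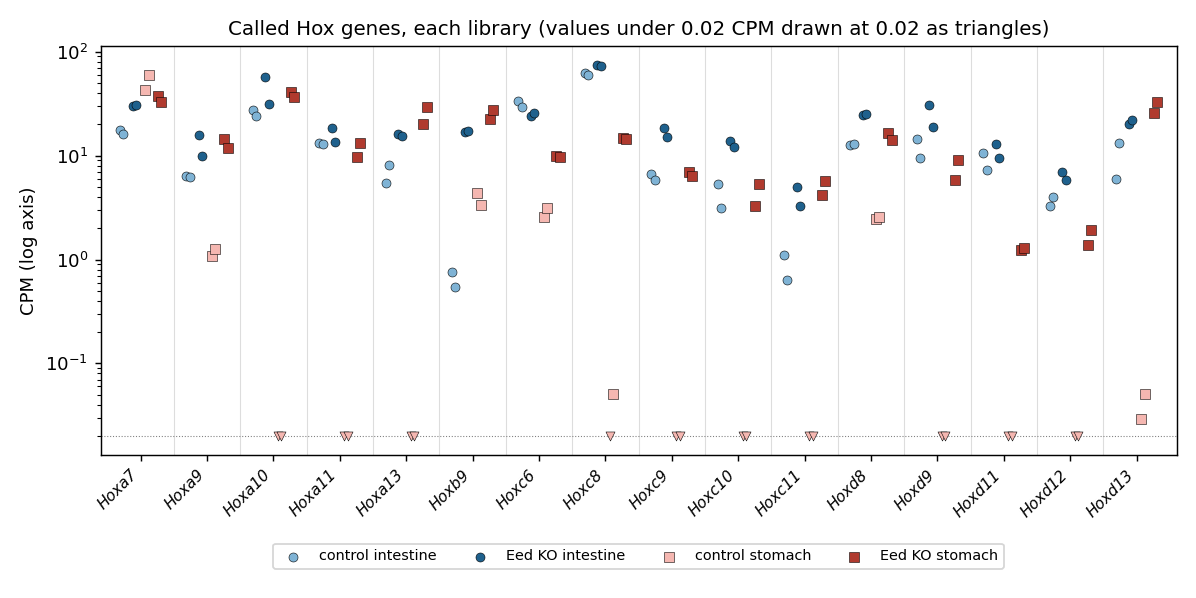
Level (CPM, log axis) in each of the 8 libraries for Hox genes called in the organ-dependence test, with each point a library and the 4 groups coloured. Control stomach points of the positive genes sit at or below 3.14 CPM, and the Eed KO stomach points of each gene lie above them. The Eed KO stomach means of these genes are 14.0% to 568% of the control intestine means.

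*Hoxb9* (chr11:96271457-96276595) went the other way. It was low in the control intestine, at 0.759 and 0.538 CPM, and stood at 4.41 and 3.31 CPM in the control stomach. After Eed loss it reached 17.0 and 17.2 CPM in the intestine and 22.3 and 27.2 CPM in the stomach, a 26-fold and a 6.47-fold rise. Both organs rose with no overlap of groups, and the ratio was larger in the intestine (−2.02 ± 0.31 SE, edgeR adjusted p = 0.0734). In CPM, without logarithms, the sign turned: *Hoxb9* gained 4.44 CPM more in the stomach. *Hoxa7*, the other negative Hox gene, stood at 43.1 and 60.2 CPM in the control and 37.2 and 32.8 CPM in the Eed KO stomach, and at 17.6 and 16.3 CPM in the control and 30.1 and 30.5 CPM in the Eed KO intestine (−1.40 ± 0.23 SE, edgeR adjusted p = 0.108). It lies within 100000 bp of the positive gene *Hoxa9*.

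By cluster, 4 of 11 tested genes of the A cluster were positive and *Hoxa7* negative, none of 10 in the B cluster was positive and *Hoxb9* negative, 5 of 9 in the C cluster and 5 of 9 in the D cluster were positive. *Hoxb13*, *Hoxc12* and *Hoxc13* had no counts in the controls of either organ, so no organ difference in fold can be given for them. *Hoxd10* lay just outside the threshold (edgeR adjusted p = 0.209). Nearest to it among all genes were *Mgp* (0.197) and *Sstr4* (0.181) inside and *Tnfaip2* (0.2004), *Inhba* and *Osr1* (both 0.204) outside, by the same adjusted p.

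**Figure D3:**
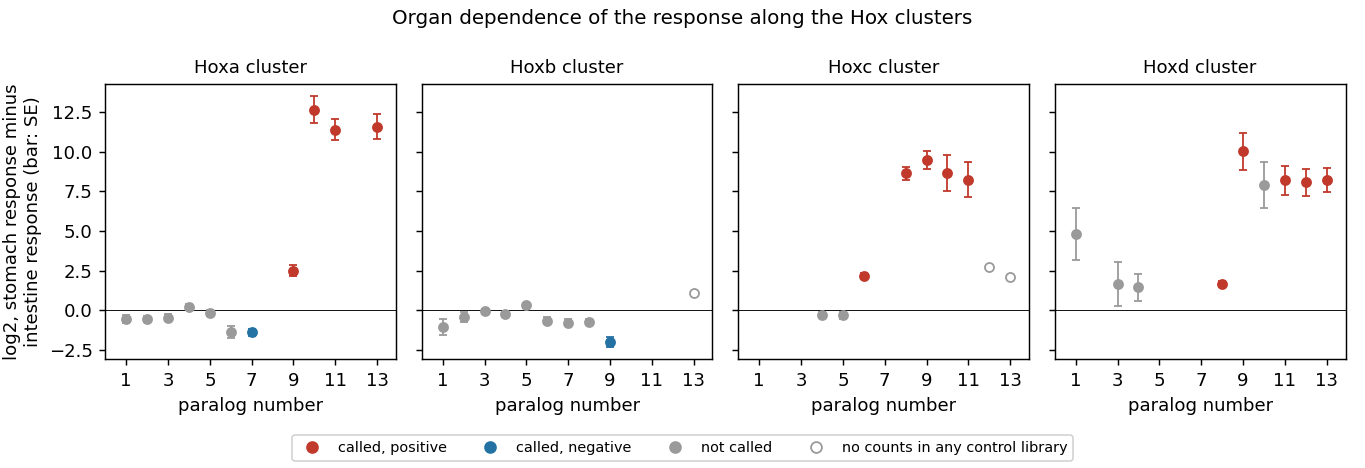
Organ difference (log2, stomach response minus intestine response; bars are SE) for the tested Hox genes of clusters A to D against paralog number. Genes without counts in the controls of either organ are open circles without bars; large positive differences lie at paralogs 8 to 13 of the A, C and D clusters.

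Transcripts that start beside Hox and POU genes were called as well. *Hoxa11os*, antisense to *Hoxa11*, went from 0 and 0 to 1.88 and 2.30 CPM in the stomach, at least 51.3-fold, and *Gm53*, which starts near the negative gene *Hoxb9*, from 0.029 and 0 to 4.88 and 8.12 CPM. *Pou3f3*, a POU-domain transcription factor of neural tissue and kidney, went from 0.116 and 0.0255 to 12.9 and 17.2 CPM in the stomach and from 1.04 and 0.875 to 6.23 and 9.33 CPM in the intestine (4.70 ± 0.63 SE, edgeR adjusted p = 0.0573). The noncoding *Pantr1*, whose start is 926 bp away, rose at least 101-fold in the stomach and 5.54-fold in the intestine. The libraries were stranded, but the strand setting used in counting is not given in the sources used here, so counts of *Hoxa11os*, *Pantr1* and *Gm53* may include reads of their neighbours. Among the 75 genes, 23 had another called gene start within 100000 bp, and for 19 of them the nearest such gene went in the same direction. Outside Hox regions these were *Pantr1* with *Pou3f3* and *Thbd* with *Sstr4*, 12844 bp apart. The same count was not made over all genes, so it has no background share.

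Of 29 gut mesenchyme organ factors tested, 1 was positive and 5 were negative, against 0.271% and 0.191% of all genes, with a median organ difference of −0.58. The positive one was *Nkx2-3* (chr19:43612325-43615892), a homeobox factor needed for the mesenchyme of the intestine and spleen. It had 153 and 180 CPM in the control intestine, 138 and 143 in the Eed KO intestine, 2.06 and 0.204 in the control stomach and 18.6 and 25.3 in the Eed KO stomach. It rose 20.4-fold in the stomach, to 13.2% of the control intestine level (4.57 ± 0.79 SE, edgeR adjusted p = 0.122). The 2 control stomach libraries of *Nkx2-3* stood apart from each other more than any other pair of the gene. *Hand1*, a bHLH factor of lateral mesoderm high in the intestine, went from 1.94 and 0.28 to 5.45 and 10.6 CPM in the stomach and did not pass the test (2.71, edgeR adjusted p = 0.511).

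Receptors were among the other positive genes. *Npr3* (chr15:11839896-11905674), the clearance receptor for natriuretic peptides, had 36.6 and 38.4 CPM in the control stomach and 147 and 179 CPM in the Eed KO stomach, a 4.33-fold rise. The intestine held 232 and 245 CPM in the control and 280 and 286 CPM in the Eed KO, a ratio of 1.19 (1.87 ± 0.16 SE, edgeR adjusted p = 0.00996). *Thbd*, the thrombin receptor thrombomodulin, rose 5.85-fold in the stomach from 21.2 and 16.3 to 101 and 116 CPM, and its neighbour *Sstr4*, a somatostatin receptor, 4.21-fold. The stomach and intestine responses of both genes were far apart, with intestine ratios of 1.14 and 0.989.

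*Peg10*, an imprinted gene derived from a retrotransposon, went from 269 and 270 to 516 and 520 CPM in the stomach, a ratio of 1.92, and stood at 617 and 503 CPM in the control and 473 and 512 CPM in the Eed KO intestine (1.13 ± 0.16 SE, edgeR adjusted p = 0.0701). *Asb4*, which lies in the same imprinted region, rose 3.12-fold in the stomach, from 60.4 and 42.2 to 164 and 153 CPM, with an intestine ratio of 1.02. In the Eed KO stomach *Peg10* lay within the range of the 4 intestine libraries, at 92.5% of the control intestine mean. *Asb4* stood there at 83.3% of its control intestine mean. *Crh*, which encodes corticotropin-releasing hormone, rose 38.5-fold in the stomach to only 2.15 and 2.03 CPM, with 0.225 to 0.396 CPM in the 4 intestine libraries.

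Outside the Hox clusters several genes were called up in both organs. *Ebf2*, a helix-loop-helix factor of mesodermal lineages, went from 0.377 and 0.306 to 11.1 and 14.9 CPM in the stomach and from 0.506 and 0.976 to 2.74 and 3.25 CPM in the intestine (3.21 ± 0.49 SE, edgeR adjusted p = 0.0734). *Corin*, a protease that processes natriuretic peptide, rose 14.4-fold in the stomach to 22.1 and 26.4 CPM and 3.48-fold in the intestine to 1.35 and 1.65 CPM. *Cldn11*, a tight junction claudin, rose 9.47-fold and 2.92-fold. *Nptx1* moved oppositely in the 2 organs, from 3.54 and 2.68 to 6.52 and 6.12 CPM in the stomach and from 29.6 and 33.2 to 13.4 and 10.2 CPM in the intestine (2.44 ± 0.27 SE, edgeR adjusted p = 0.0339).

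Among the negative genes, several transcription factors rose in the intestine. *Barx1* (chr13:48662998-48666507) had 627 and 557 CPM in the control and 379 and 310 CPM in the Eed KO stomach. In the intestine it had 0.534 and 1.48 CPM in the control and 9.47 and 13.2 CPM in the Eed KO. It rose 11.7-fold in the intestine, to 1.92% of the control stomach level. The stomach ratio of 0.585 did not pass the test within the stomach (edgeR adjusted p = 0.141), although the 2 groups did not overlap. The organ difference was −4.31 ± 0.46 SE (edgeR adjusted p = 0.031).

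*Mecom* (chr3:29951296-30548008), a zinc finger factor, rose 9.85-fold in the intestine, from 0.197 and 0.202 to 1.69 and 2.25 CPM, and stood in the stomach at 38.8 and 52.5 CPM in the control and 40.5 and 39.4 CPM in the Eed KO (−3.48 ± 0.36 SE, edgeR adjusted p = 0.0303). *Sox9*, a factor of cartilage and of the pyloric mesenchyme, rose 4.19-fold in the intestine, from 0.983 and 1.18 to 3.85 and 5.19 CPM, with a stomach ratio of 1.26. *Nr2f1*, a nuclear receptor, stood at 29.7 and 33.8 CPM in the control and 61.5 and 63.9 CPM in the Eed KO intestine, a log2 change of 0.98 that fell short of the limit of 1. *Msc*, a bHLH repressor, rose 4.43-fold in the intestine and fell to a ratio of 0.478 in the stomach (−3.24 ± 0.39 SE, edgeR adjusted p = 0.0475).

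Further negative genes belonged to none of the gene lists. *Gap43* (chr16:42248442-42340651), a growth cone protein, had 13.3 and 13.7 CPM in the control and 4.80 and 4.39 CPM in the Eed KO stomach, and the intestine had 3.54 and 3.87 CPM in the control and 4.72 and 4.34 CPM in the Eed KO. The Eed KO stomach fell to the level of the intestine (stomach ratio 0.34, intestine ratio 1.23, organ difference −1.85 ± 0.21 SE, edgeR adjusted p = 0.037). *Syt4*, a synaptotagmin of secretory vesicles, fell in the stomach from 4.84 and 5.76 to 0.617 and 0.713 CPM, a ratio of 0.125. *Rims1*, a protein of the active zone, fell to a ratio of 0.457 and *Syndig1*, a synaptic membrane protein, to 0.402. *Sez6* stood at 5.83 and 8.46 CPM in the control and 3.03 and 3.87 CPM in the Eed KO stomach and rose 5.37-fold in the intestine from 0.225 and 0.236 CPM (−3.46 ± 0.42 SE, edgeR adjusted p = 0.0476).

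Beside these falls the markers of enteric neural crest cells, the source of gut neurons and glia, did not move the same way. The 14 markers in the count files summed to 59.8 and 71.5 CPM in the control and 73.2 and 86.7 CPM in the Eed KO stomach. In the intestine they summed to 210 and 197 CPM in the control and 102 and 174 CPM in the Eed KO. Of the 13 that were tested, none was called in the organ-dependence test (edgeR), against 0.462% of all genes. An unadjusted p under 0.05 was held by 0 of them, against 5.88% of all genes. In a list this small, 0 is near both shares. *Sox10* stood at 0.348 and 1.15 CPM in the control and 0.590 and 1.07 CPM in the Eed KO stomach.

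Of 65 neurotransmitter receptors tested, 0 were positive and 3 negative, against 0.271% and 0.191% of all genes, and the list had a median organ difference of −0.22 beside −0.01 for all genes. *Chrm3*, the muscarinic receptor of smooth muscle, fell in the stomach from 32.8 and 30.3 CPM to a mean of 12.5 CPM, a ratio of 0.397, and the intestine held 22.3 and 22.4 CPM in the control and 19.3 and 19.1 CPM in the Eed KO (−1.12 ± 0.17 SE, edgeR adjusted p = 0.073). The summed level of smooth muscle genes was also lower in the Eed KO stomach, at 4336 and 4809 CPM against 5685 and 5906 CPM, and its part in the fall of *Chrm3* was not tested. *Adra2a*, an adrenergic receptor, fell from 42.9 and 27.8 to 11.9 and 11.1 CPM. *Grm3*, a glutamate receptor, fell from 6.23 and 8.01 to 2.84 and 3.62 CPM in the stomach and rose from 0.169 and 0.135 to 1.00 and 1.03 CPM in the intestine (−3.84 ± 0.41 SE, edgeR adjusted p = 0.031). Receptors outside that list included *Avpr1a*, a vasopressin receptor, with a stomach ratio of 0.449, and *P2ry1*, a receptor for ADP, with 0.239.

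Signalling genes among the negative ones were single members of their families. *Efnb2*, the ligand ephrin-B2 and 1 of 78 axon guidance genes tested, fell from 313 and 305 to 146 and 136 CPM in the stomach, while the intestine stayed at 174 and 159 in the control and 171 and 149 CPM in the Eed KO (−1.07 ± 0.15 SE, edgeR adjusted p = 0.058). *Cyp26a1*, the enzyme that breaks down retinoic acid, fell from 15.9 and 16.9 to 5.34 and 3.65 CPM in the stomach and stayed between 0.730 and 1.00 CPM in the intestine. *Il33*, an alarmin cytokine of stromal cells, fell in the stomach from 39.0 and 47.3 to 15.6 and 16.6 CPM and stood between 42.2 and 49.1 CPM in the intestine. *Cldn15*, a claudin, fell to a ratio of 0.173 in the stomach and stood at 0.704 in the intestine.

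**Figure D4:**
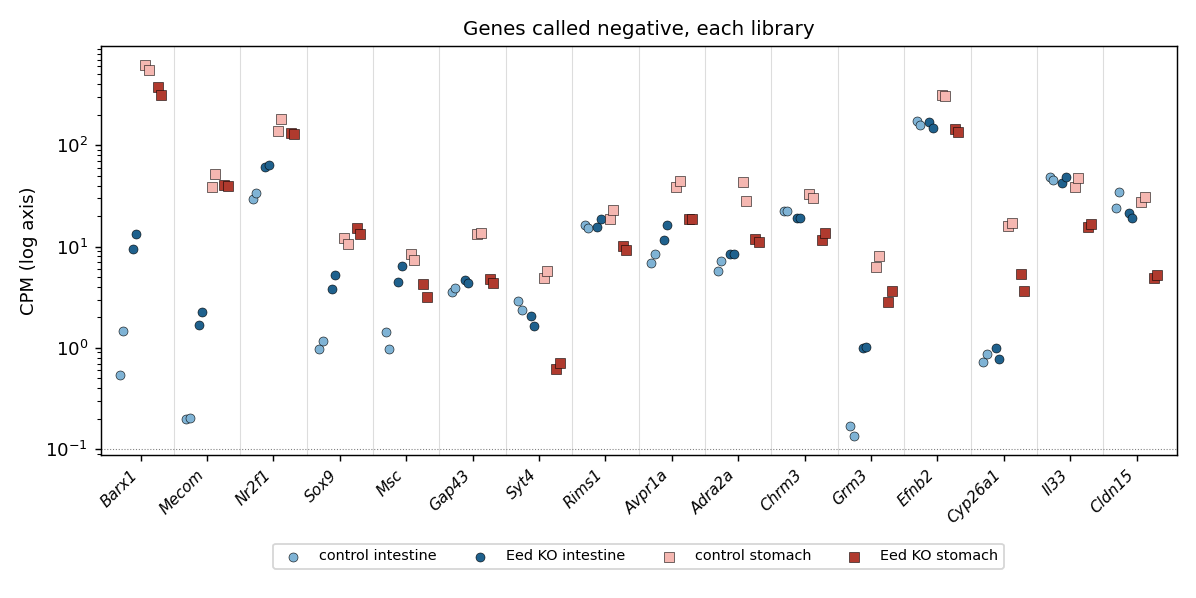
Level (CPM, log axis) in each of the 8 libraries for genes with a negative organ difference, with each point a library and the 4 groups coloured. *Barx1* and *Mecom* rise in the intestine and stay far below the stomach, whereas *Gap43* falls in the stomach to the intestine level.

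Of the 50 gene lists examined, 39 held no gene called by edgeR. They hold 575 tested genes, 86 of them at an unadjusted p under 0.05, against 5.88% of all genes tested. No gene was called among 13 Wnt ligands, 22 BMP and TGF-beta ligands, 14 of their antagonists, 14 FGF ligands, 10 Hedgehog response genes or 14 Notch pathway genes. Nor was any called among 7 CDK inhibitors, 30 Polycomb subunits, 22 smooth muscle genes and 25 cell cycle genes. The share called among all genes was 0.462%, and in lists of this size 0 is near that share. At an unadjusted p under 0.05 stood 2 Wnt ligands, 6 BMP and TGF-beta ligands, 3 of the antagonists, 3 FGF ligands, 2 Hedgehog response genes, 1 Notch gene, 4 smooth muscle genes, 1 cell cycle gene and none of the CDK inhibitors and Polycomb subunits. *Cdkn2a*, the locus of the cell cycle inhibitors p16 and p19 and a known PRC2 target, had an organ difference of 0.84 and *Cdkn2b* of −0.71 (edgeR adjusted p = 1 for both). *Wnt2* had −2.47 (edgeR adjusted p = 0.669), *Wnt11* 0.60 (0.952) and *Pitx1*, a homeobox factor, −1.47 (0.305). *Nkx3-2*, the driver of the Cre, had −0.20 (edgeR adjusted p = 1). With 2 libraries a group a p above the threshold does not show equal responses. Endothelial markers, 13 genes of which none was called, summed to 25.4 to 30.3 CPM in the 4 control libraries, to 77.0 and 75.2 in the Eed KO intestine and to 46.3 and 69.8 in the Eed KO stomach. Smooth muscle genes summed to 8511 and 6437 CPM in the control and 6818 and 10996 CPM in the Eed KO intestine. Their stomach sum was 5685 and 5906 CPM in the control and 4336 and 4809 CPM in the Eed KO, lower without overlap. Their part in the results above was not tested.

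Same-numbered libraries of 1 genotype deviated together from their group means, with a Pearson r over 16218 genes of 0.34 in the controls and 0.714 in the Eed KO. With a block for these pairs edgeR called 179 genes positive (1.1%) and 171 negative (1.05%), 350 in all (2.16%), among them all 44 and all 31 of the fit without it. The block leaves 2 residual degrees of freedom, and the labels do not say that a number marks a shared embryo. Genes called only with it include *Pitx1* (edgeR adjusted p = 0.00271 with the block), *Hand1* (0.0751), *Wnt2* (0.0537) and *Hoxd10* (0.0529). In 18 of the 39 lists with no called gene the block added at least 1, among them 3 positive BMP and TGF-beta ligands, 2 negative antagonists and 2 negative Wnt ligands. Hedgehog and Notch genes, CDK inhibitors, Polycomb subunits and cell cycle genes still had none.

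The number of calls was sensitive to single libraries. Each of the 75 genes kept its sign when any 1 of the 8 libraries was left out, and 15 positive and 5 negative genes (*Mecom*, *Grm3*, *Barx1*, *Gap43* and *Msc*) stayed called in all 8 fits. Calls dropped to 25 and 7 without control intestine replicate 1, to 25 and 18 without control intestine replicate 2, to 17 and 10 without control stomach replicate 2 and to 20 and 12 without Eed KO stomach replicate 2. Scaling on spike-in transcripts shifted the median organ difference of all genes to 0.53 and left 20 positive and 0 negative calls, with 127 and 25 genes at an unadjusted p under 0.05. Of the 44 positive genes, 18 (40.9%) stayed called with that scaling. Differences of both signs are therefore stated relative to the median gene.

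Chromatin accessibility was available as 1 list of pooled ATAC-seq peaks per condition, with no replicates and no test. Within 1000 bp of the gene start 40 of the 44 positive promoters and 28 of the 31 negative ones had a peak in all 4 lists (90.9% and 90.3%), near the 86.9% of all genes. Median fold enrichment at positive promoters was 3.72 in the control intestine, 3.64 in the control stomach, 3.44 in the Eed KO intestine and 3.71 in the Eed KO stomach, lower than the 6.91, 6.80, 6.46 and 6.69 of all genes. At negative promoters the medians were 4.80, 4.95, 4.81 and 4.68. The stomach change in fold enrichment exceeded the intestine change at 52.5% of positive, 57.1% of negative and 64.1% of all promoters with peaks throughout.

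With peaks limited to a −log10 q of at least 5, 13 of the 44 positive promoters (29.5%) had a peak in the Eed KO stomach and none in the control stomach, against 2.3% of all genes and 1 negative gene (3.23%). Without that limit on q the gain was seen at 1 of the 44 (2.27%) and at 1.24% of all genes. No positive or negative promoter lost a peak in the stomach under the limit on q, near the 0.475% of all genes that did. With the limit, 65.9% of positive promoters had a control stomach peak, against 84.4% of all genes, so a larger share of them could gain one. Of the 13 that gained a peak, 8 are Hox genes, *Hoxa9*, *Hoxa11*, *Hoxa13*, *Hoxc6*, *Hoxc9*, *Hoxd8*, *Hoxd11* and *Hoxd12*. Fold enrichment did not follow the q value at all of them. It was higher in the Eed KO than in the control stomach at 6 of the 13 and lower at 6, and *Hoxa11os* had no control peak. The Eed KO stomach peak of *Hoxa11os* is the same as that of *Hoxa11*, so it is counted for both genes. Among the 8 Hox promoters it was higher at 3 and lower at 5, for example 2.90 in the control and 2.74 in the Eed KO stomach at *Hoxa11*. The same gain in the intestine was seen at 4 of the 44 (9.09%), with *Hoxa11* and *Hoxa11os* again counted on the same peak, and at 1.57% of all genes. The promoter of *Nkx2-3*, printed above, had a fold enrichment of 2.74 in the control and 3.61 in the Eed KO stomach, with −log10 q going from 4.75 to 26.0, and of 6.51 and 5.70 in the intestine. At the *Barx1* promoter the −log10 q was 30.6 in the control and 14.7 in the Eed KO stomach. A −log10 q also depends on the number of reads pooled in each list, which the peak lists do not give.

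**Figure D5:**
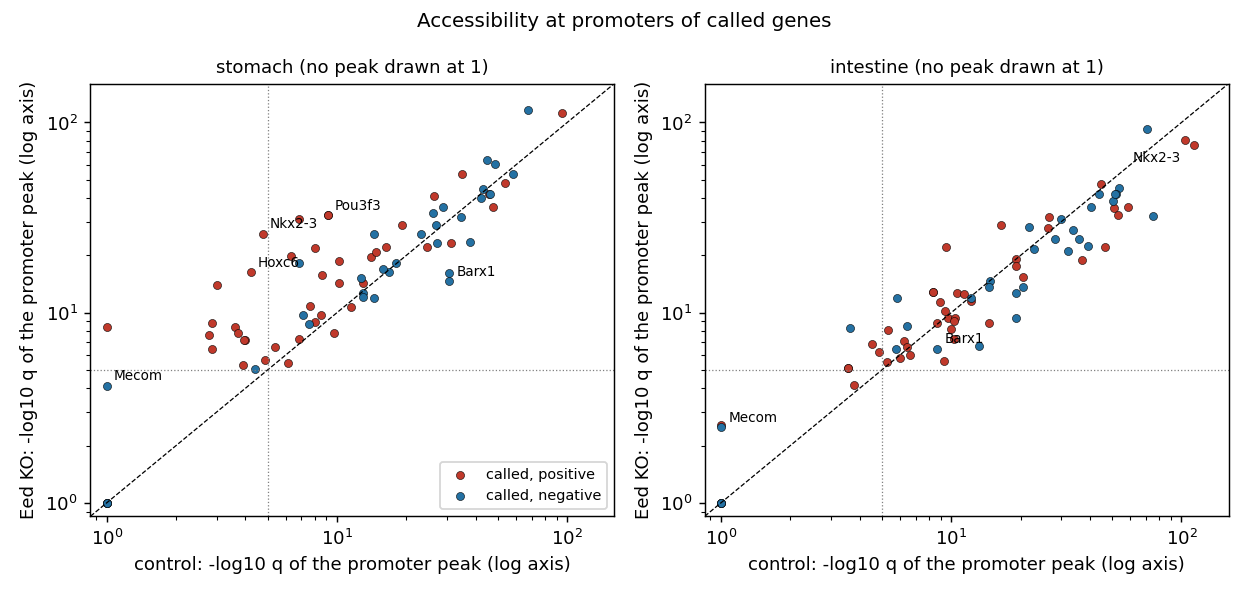
Significance (−log10 q, log axes) of the promoter peak with the highest fold enrichment in the control (x axis) and Eed KO (y axis) list of each organ, for positive and negative genes, from pooled ATAC-seq without replicates; genes with no peak are drawn at 1 and dotted lines mark 5. In the stomach 34 of 44 positive (77.3%) and 17 of 31 negative genes (54.8%) lie above the diagonal, against 69.9% of all genes, and *Nkx2-3* goes from 4.75 to 26.0.

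In the window from 250 bases before to 50 bases after the gene start, the positive genes held 2 to 45 CG (median 15), the negative genes 1 to 43 (median 12) and all 16198 genes with a window a median of 18. At least 15 CG were found in 23 of 44 positive, 12 of 31 negative and 59.5% of all promoters. Both medians lay below that of all genes, and the difference was not tested. The gene start was the outermost annotated position of a gene, which need not be the promoter in use. Windows of some genes may therefore miss their promoter, and these counts do not show that called genes have CpG-poor promoters.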

How the data were processed

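Members and gene lists were chosen with earlier results of these data known. The authors deposited raw counts per gene for each library (bcl2fastq, Trimmomatic 0.32, STAR 2.5.1b, GRCm38 with spike-in sequences, GENCODE vM4, featureCounts, per the labels and methods), made from stranded poly(A) libraries. They deposited ATAC-seq broad peaks per condition, called on pooled replicates (BWA 0.7.8, MACS2 2.1.2), each with a fold enrichment (a ratio) and its −log10 q.

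Of 43280 gene symbols, 16218 passed edgeR's filter on low counts, and 99 spike-in transcripts were left out of library sizes. Organ dependence was tested with edgeR 4.0.16 (R 4.3.3, TMM, quasi-likelihood F-test, 4 group means, Benjamini-Hochberg over all genes) and called at an adjusted p under 0.2 with a log2 difference over 1 in size. Adjusted p-values come from this fit, which all 8 libraries share. Of exact permutation tests, 2 against 2 libraries cannot go below p = 0.333. A fold against 0 counts used 3 counts over the group as floor. The counting intervals cover counting error only.

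Same-numbered libraries of 1 genotype deviated together (Pearson r 0.34 and 0.714, against 0.104 to 0.24 across genotypes). With 2 pairs and no label that ties a number to an embryo, the fit with a replicate block was kept as an alternative. Gene starts were the outermost exon positions of each gene in GENCODE vM4, read from an adult count file, and adult counts were not used here. A promoter peak overlapped the 1000 bp on either side of the gene start (bedtools 2.31.1). CpG were counted in GRCm38.p6, since the RefSeq promoter table matched 56.8% of positive and 71% of negative genes.

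Genes were named by rule: in each direction the 12 with the smallest p and at least 1 CPM in a group, up to 4 called members of each list, the 5 largest differences called with and without the block, and a set of regulators and checks. Other called genes, and *Hoxd10*, *Tnfaip2*, *Inhba*, *Osr1* and *Sox10*, were chosen after their values were seen. Alternatives were DESeq2 1.42.0, other scalings, filters and thresholds, and each library left out in turn. The sign in CPM was added after seeing the data. Some genes that meet the rule are not reported here. Scripts were tested on simulated data.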

Additional observations from a re-analysis of the deposited data

Results flagged for a closer look

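For 17 of the genes the response to Eed loss differed between stomach and intestine also at an adjusted p under 0.05 (edgeR, test of the difference itself), the reason to look again at them. The difference was positive for 11: *Hoxc8* (adjusted p = 0.000524), *Hoxa11* and *Hoxc9* (both 0.00814), *Hoxa10* and *Hoxa13* (both 0.00989), *Npr3* (0.00996), *Hoxd13* (0.014), *Hoxc6* (0.0164), *Hoxd8* and *Nptx1* (both 0.0339) and *Hoxd12* (0.046). It was negative for 6: *Mecom* (adjusted p = 0.0303, edgeR), *Grm3* and *Barx1* (both 0.031), *Gap43* (0.037), *Msc* (0.0475) and *Sez6* (0.0476).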

How the results depend on the processing

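With 2 libraries a group, the counts of calls moved more than the directions. The 44 positive and 31 negative calls became 11 and 6 at an adjusted p under 0.05, 108 and 99 by DESeq2, 112 and 155 by DESeq2 with 1 spike-in factor, 120 and 117 without the filter on low counts, and 20 and 0 with spike-in scaling. With the replicate block they were 179 and 171, and all 75 genes were among them. Leaving out 1 library gave 17 to 57 and 7 to 45. The other settings stayed within 1.5 times. Eed KO replicate 2 libraries had 5501 and 4871 spike-in counts, replicate 1 had 14932 and 12108, and controls 26227 to 37590.

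Spike-in scaling gave 15419 genes up and 19 down in the stomach (785 and 131 without it) and 13664 and 24 in the intestine (386 and 37). DESeq2 gave 628 and 57 in the intestine. Without 1 library the counts were 282 to 576 and 50 to 74 in the stomach, and 60 to 338 and 11 to 28 in the intestine. Promoters with a peak in all 4 lists fell from 40 to 26 of the positive genes when 50% of the peak had to overlap, and those gained in the Eed KO stomach went from 1 to 13 at −log10 q of 5, 0 within 5000 bp and 3 at that overlap. The 1 negative promoter gained became 0 within 5000 bp and 0 at that overlap.

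Among named genes, signs turned on the CPM scale for *Hoxb9*, *Hoxc9*, *Hoxd9*, *Hoxd11*, *Hoxd12*, *Hoxc10* and *Fam155a*. Uncalled genes turned sign as well: *Eed* (0.38 with spike-in scaling, 0.10 with the spike-in factor), *Nkx3-2* (0.44 with spike-in scaling) and *Xist* (−3.94 with the spike-in factor). The cause was not tested. With 1 library left out, the log2 differences of uncalled genes ranged from −1.59 to 3.98 for *Cdkn2a*, from −4.03 to 1.23 for *Cdkn2b*, from −0.44 to 0.18 for *Eed*, from −0.63 to 0.43 for *Nkx3-2* and from −8.34 to 8.90 for *Xist*.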

Other observations

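Some genes had almost no counts in the controls of either organ, so a ratio of ratios says little of them, yet their levels after Eed loss differed between the organs. The summed level of the 5 tested Zic genes, transcription factors of neural and somite tissue, was 0 and 0.101 CPM in the intestine of controls and 0 in both control stomach libraries. After Eed loss it was 3.19 and 6.99 CPM in the intestine and 42.0 and 51.0 CPM in the stomach, with no overlap of the 2 organs. None of the Zic genes was called in the organ-dependence test, with or without the replicate block. Of all genes, 2.16% were called with the block and 0.462% without it. The 9 Pax genes in the count files, paired box transcription factors of which 6 were tested, were summed as well. Their sums were 0.0843 and 0.168 CPM in the intestine of controls and 0.493 and 0.459 CPM in their stomach. After Eed loss the sums were 3.27 and 6.39 CPM for the intestine, 17.0 and 22.4 CPM for the stomach. These sums were chosen after their values were seen and were not tested.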
